A study of Hevea brasiliensis with 21 samples.

Results

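In latex of the rubber tree Hevea brasiliensis, 28 contigs out of 86941 differed by at least 1 on the log2 scale, in the same direction, between trees with tapping panel dryness (TPD) and untreated control trees of both clone PB260 and clone PB217, while they differed by less than 0.4 between ethephon-treated PB260 trees with slight dryness and the PB260 control trees. Of these, 23 were higher and 5 were lower in TPD. A contig is an assembled transcript sequence, and its level was counted as CPM, read pairs per 1000000 counted pairs of the library. Members needed a mean of at least 2 CPM over 21 libraries, and differences were taken between log2 of the group means plus 0.5. The contigs were thus chosen by their levels in these 5 groups, and every difference between them is given below as a description, without a test. Because 0.5 was added, the differences understate those of contigs near 0.

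Rubber is made in laticifers, connected cells of the bark whose fluid content is harvested as latex by cutting (tapping) the bark. Ethephon releases ethylene in the bark and prolongs that flow. Tapping panel dryness is a loss of flow along part or all of the tapping cut, which occurs in heavily exploited trees and in which latex coagulates inside the laticifers.

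For PB260, 3 trees each had severe TPD with ethephon, slight TPD with ethephon, and slight TPD without ethephon (control), all at month 36 of tapping. Ethephon was applied 12 times a year. For PB217, 3 libraries each came from TPD trees given ethephon at month 36, control trees without ethephon at month 36, trees given ethephon at month 1, and trees without ethephon at month 1, as read from the sample titles. The records call the slight TPD trees of PB260 healthy and list no treatment for any library. Further codes in the titles differ between the clones and are not explained in the sources used here. The study describes semi-spiral tapping every other day for PB260 and does not describe PB217. Whether the codes stand for the tapping system is not stated, so clone and tapping system may differ together. Each PB260 library was 1 tree. Nothing states that the numbered PB217 libraries were separate trees, although they are called trees here, so p-values measure only the spread between these libraries. No PB217 group at month 36 had ethephon without TPD, and the control trees of both clones were harvested on another day than the ethephon-treated trees, so in PB217 dryness, ethephon and harvest day cannot be told apart. In PB260, severe and slight TPD trees shared ethephon and the harvest day.

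The libraries held 16102321 to 23126417 counted pairs, so that 3 pairs correspond to 0.13 to 0.186 CPM. Latex markers (4 contigs, summed) stood at 1427 to 3610 CPM in every library. Most of this was the translationally controlled tumour protein contig CL1Contig7138, alone at 1404 to 3560 CPM, so the sum says little of the others. CL10238Contig1 ran from 1.04 to 38.8 CPM, CL10238Contig2 from 2.77 to 93.4 CPM and CL5369Contig2 from 0.115 to 263 CPM (median 0.644). The 2 contigs of the photosystem II protein D1 together stayed at 0.697 CPM or less. Contigs with a powdery mildew best match summed to 5.91 to 11.9 CPM in severe TPD trees, 9.21 to 14.3 CPM in slight TPD and 14.4 to 18.6 CPM in control trees of PB260, with 59, 59 and 56 of 62 such contigs at 0 in all trees of the group. In PB217 they summed to 2.05 to 7.77 CPM in TPD trees and 3.14 to 4.82 CPM in control trees. Their part in the results was not tested. Severe TPD replicate 2 of PB260 stood apart from the other severe trees, with 429 of 24699 contigs over 4-fold lower and 10 over 4-fold higher. In PB217 TPD replicate 2, 200 contigs exceeded the other TPD trees by over 4-fold and 111 lay under them by as much.

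The clause on ethephon removed most candidates. Among 24699 contigs with a mean of at least 2 CPM, 3053 differed by at least 1 in PB260 and 4536 in PB217. Both clones agreed in sign for 1258 contigs, 960 higher and 298 lower in TPD, and opposed each other for 39. Of the 1258, 1230 also differed by at least 0.4 between ethephon-treated slight TPD trees and control trees, which left the 28. Both PB260 differences were taken from the same control trees and share ethephon and harvest day, so nothing is read from this number. Among all 24699 contigs, 49.4% did not overlap between slight TPD trees with ethephon and control trees. None of the 28 was among the 2148 contigs whose annotation was held here, although 128 of those met the dryness clauses. The 13 annotation lists examined, from transcription factors to jasmonate synthesis, therefore held 0 members, and the contigs are described by identifier with no role. Their lengths ran from 392 to 2103 bases (median 761.5), and 12 of 28 (11 higher, 1 lower) belonged to the large assembly cluster CL1.

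**Figure D1:**
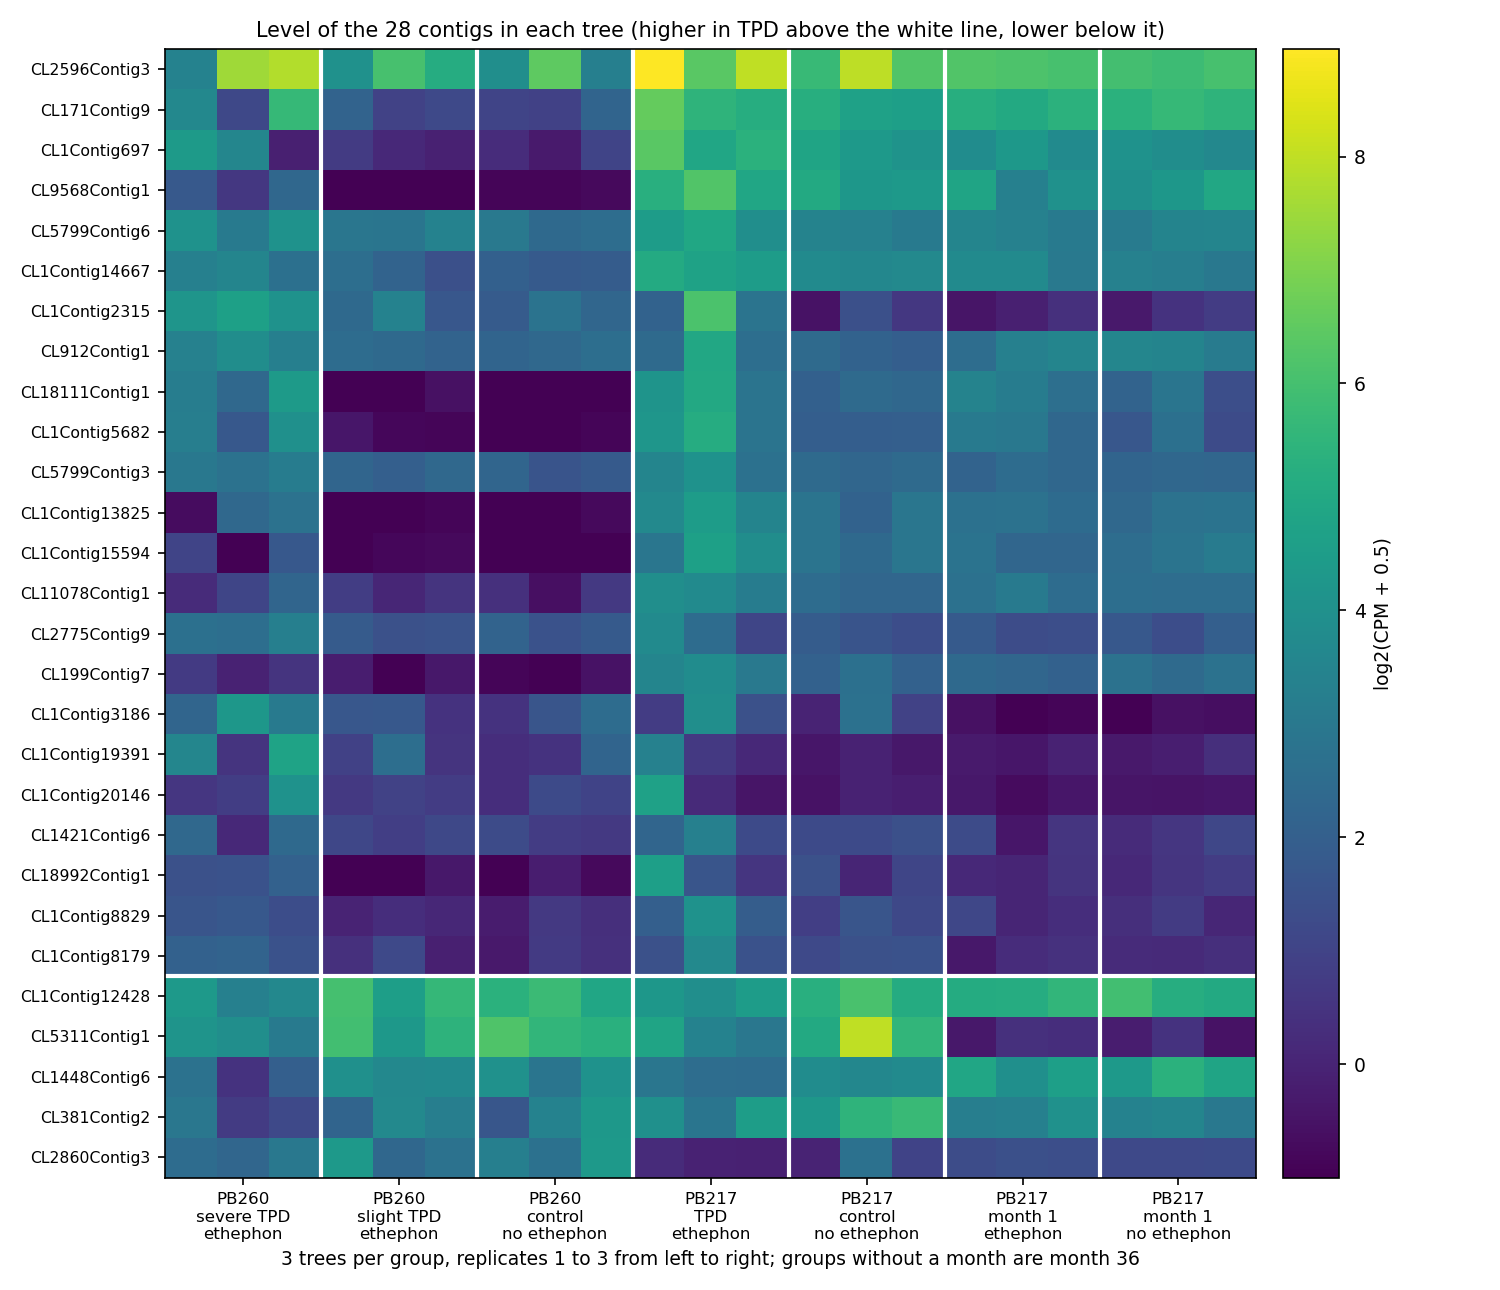
Level of each of the 28 contigs (rows, 23 higher in TPD above the white line and 5 lower below it) in each of the 21 libraries (columns, 3 per group), as log2(CPM + 0.5). Several contigs, CL18111Contig1 among them, are dark in slight TPD and control trees of PB260 but not in PB217, and the bright cells of the TPD groups often sit in a single tree.

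In PB260, every severe TPD tree was above every control tree for 14 of the 23 higher contigs and below every control tree for 3 of the 5 lower ones. Among all 24699 contigs, 20.9% lay above and 17.1% below. In PB217 the counts were 13 and 3, where 40.2% of all contigs lay above and 7.96% below. In both clones at once 10 higher and 3 lower contigs were free of overlap (all contigs: 15.7% above in both, 4.64% below in both, 20.3% either way), and for 9 and 3 of them every severe TPD tree also lay beyond every slight TPD tree. Severe and slight TPD trees of PB260 did not overlap for 17 of the 28 members, against 21.8% of all contigs. Since the rule used these groups, nothing is read from these counts. Between ethephon-treated slight TPD trees and control trees, 1 of 28 contigs did not overlap, against 49.4% of all contigs, which is what the clause on ethephon asks for.

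The members depended on single trees. When each of the 15 trees of the 5 groups was left out in turn and the rule applied again, 18 to 33 contigs met it, and 16 to 28 of the 28 were kept. Without PB217 TPD replicate 2, the library that stood apart, 16 were kept of 18 found, and without severe TPD replicate 2 of PB260, 24 of 28 found. Only 3 contigs were kept whichever tree was left out: CL18111Contig1 and CL1Contig5682, which were higher in TPD, and CL1448Contig6, which was lower. The other 25 were lost without at least 1 tree. The pair of higher contigs did depend on the 0.5 added before the log. With 0.1 added instead, their ethephon difference was 0.68 for CL18111Contig1 and 0.95 for CL1Contig5682, past the limit of 0.4, and CL1Contig5682 was also lost with an ethephon limit of 0.2, while CL1448Contig6 was kept under both. With 0.1 added, 20 of the 28 still met the rule. Also past the limit were CL199Contig7 (0.79), CL9568Contig1 (-0.73), CL1Contig15594 (0.59), CL18992Contig1 (-0.44), CL1Contig19391 (0.44) and CL5799Contig6 (0.42).

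**Figure D2:**
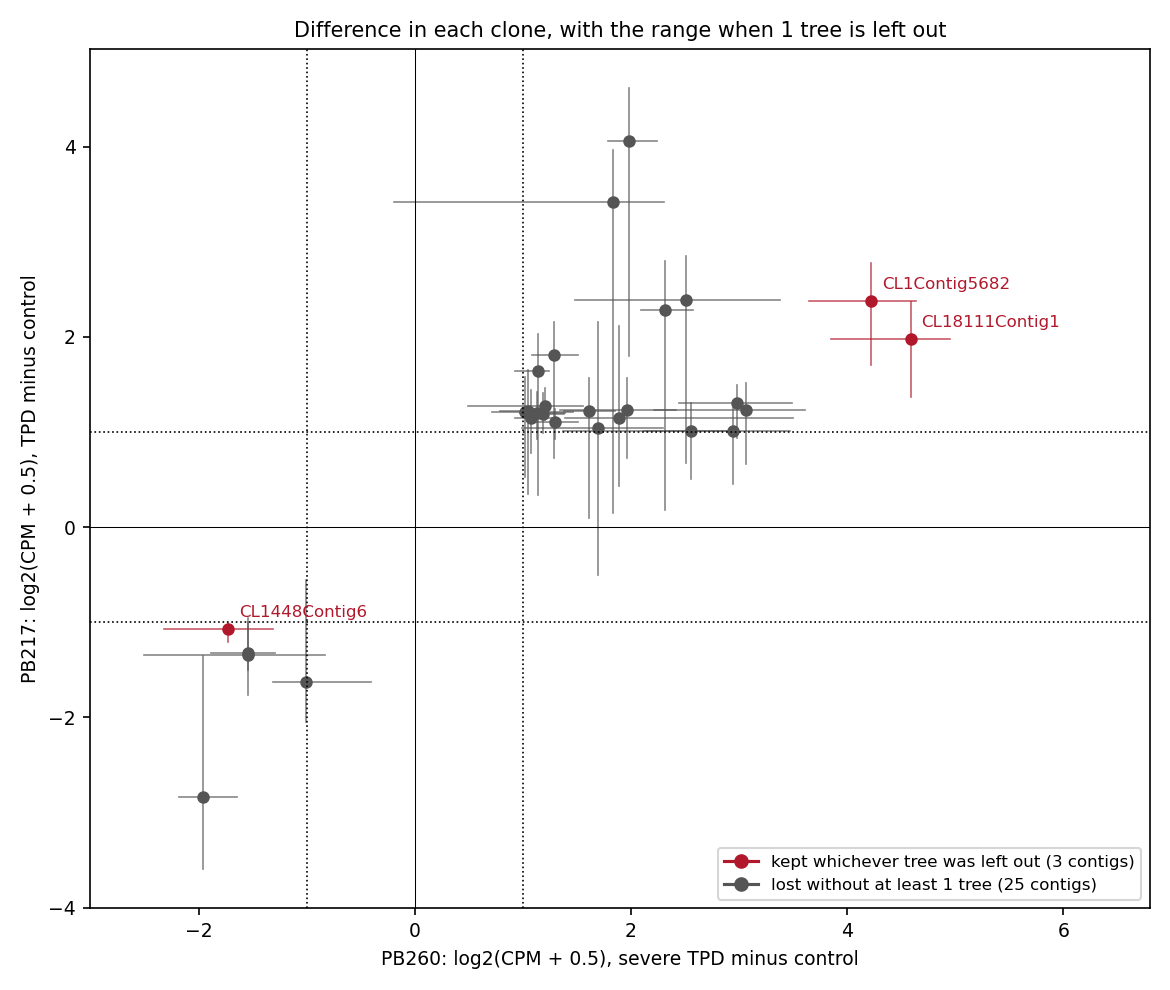
Difference in log2(CPM + 0.5) between severe TPD and control trees of PB260 (horizontal axis) and between TPD and control trees of PB217 (vertical axis) for the 28 contigs, with lines for the range when 1 tree was left out and dotted lines at the limits of 1. The 3 contigs in red were kept whichever tree was left out, CL18111Contig1 at 4.59 and 1.98, CL1Contig5682 at 4.23 and 2.37 and CL1448Contig6 at -1.72 and -1.07.

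Scaling mattered as much. With plain CPM, the median difference of all 24699 contigs was 0.01 for severe TPD minus control in PB260, but 0.42 for TPD minus control in PB217 and 0.17 for slight TPD with ethephon minus control in PB260. With TMM scaling, which sets libraries level on the bulk of contigs, these medians were 0.05, 0.03 and -0.02. The 23 higher contigs had a median PB217 difference of 1.23 with CPM and 0.81 with TMM, and the 5 lower ones -1.34 and -1.70. All 28 kept their sign in both clones, but only 13 still differed by at least 1 in PB217. With TMM, 16 contigs met the whole rule (11 higher, 5 lower), of which 10 were among the 28: CL1Contig2315, CL912Contig1, CL18111Contig1, CL1Contig5682, CL1Contig19391, CL1Contig20146, CL18992Contig1 and CL1Contig8829, higher in TPD, and CL1Contig12428 and CL1448Contig6, lower. With DESeq2 size factors 16 contigs met it as well (10 higher, 6 lower), again with 10 of the 28.

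**Figure D3:**
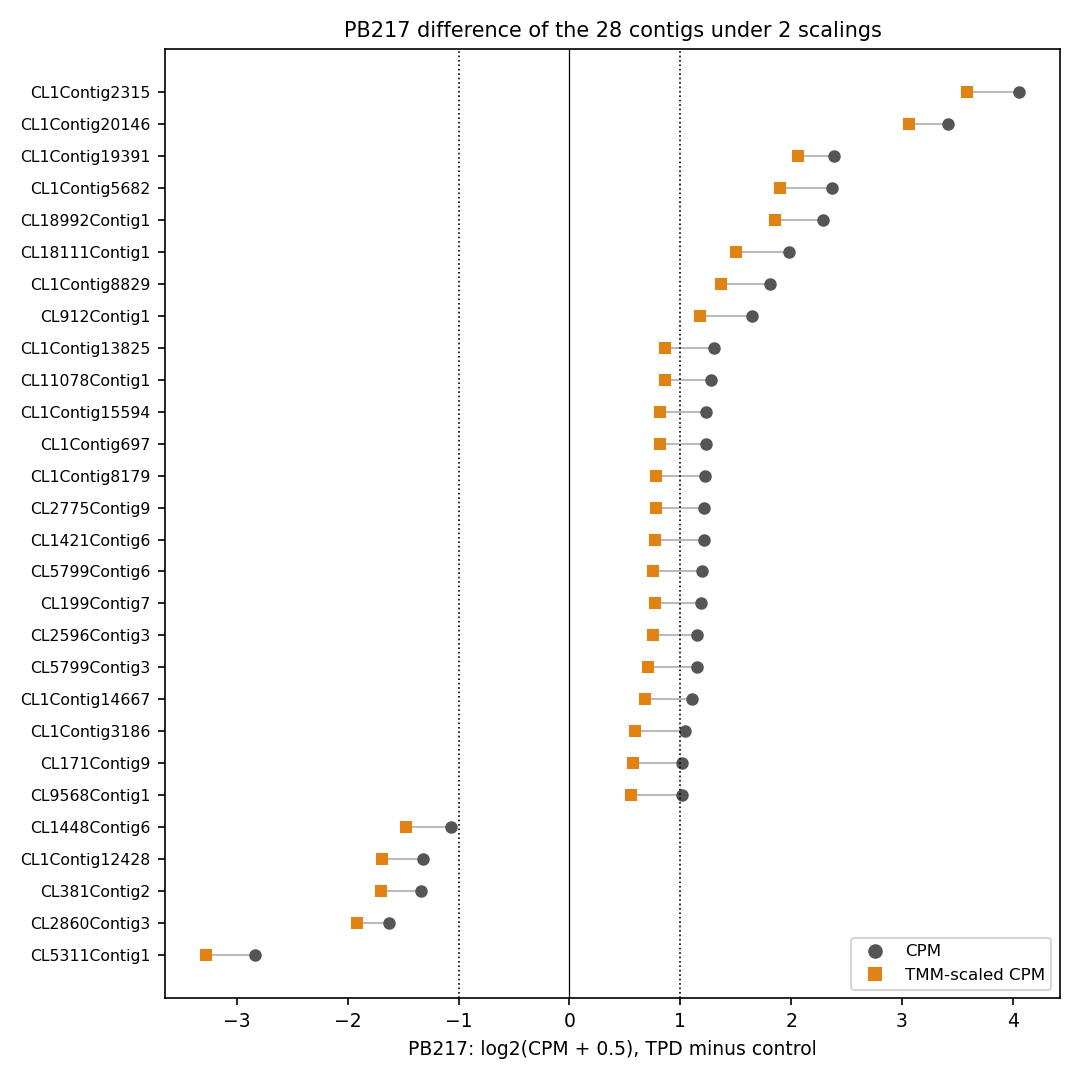
PB217 difference in log2(CPM + 0.5), TPD minus control, of the 28 contigs with plain CPM (circles) and TMM-scaled CPM (squares). With TMM scaling the squares lie to the left of the circles throughout, and 15 contigs higher in TPD fall below the dotted limit of 1 while the 5 lower contigs lie farther from 0.

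CL18111Contig1, a contig of 533 bases, was close to absent from PB260 trees without severe TPD. Severe TPD trees had 8.88, 4.59 and 21.1 CPM, ethephon-treated slight TPD trees 0, 0 and 0.182 CPM, and control trees 0 in all 3. PB217 TPD trees had 17.3, 31.6 and 6.59 CPM, and PB217 control trees 3.59, 4.85 and 4.53 CPM. Every TPD tree was above every control tree in both clones. Against a floor of 3 pairs over the 3 PB260 control libraries, the level in severe TPD was at least 235-fold higher than in control trees, and at least 137-fold higher without severe TPD replicate 3. The PB217 difference was 1.98 with CPM and 1.5 with TMM.

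CL1Contig5682 (1425 bases) followed the same pattern. Its levels were 9.11, 2.83 and 15.6 CPM in severe TPD trees, 0.268, 0.0621 and 0.0454 CPM in ethephon-treated slight TPD trees and 0, 0 and 0.0507 CPM in control trees of PB260. In PB217 it had 18.0, 35.0 and 6.64 CPM in TPD trees, and 3.39, 3.37 and 3.56 CPM in control trees. The trees ranked alike for both contigs within each TPD group. In the 15 libraries where both reached 1 CPM, the ratio of CL18111Contig1 to CL1Contig5682 stayed between 0.903 and 1.63 (median 1.19), the second narrowest spread of a ratio among the pairs of members that shared at least 12 such libraries. The points of that comparison share libraries, and the ratio is of CPM, not of levels per length.

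CL1448Contig6 (2103 bases) was the lower contig that no single tree decided. Severe TPD trees had 6.31, 0.858 and 3.55 CPM, ethephon-treated slight TPD trees 15.3, 11.9 and 12.6 CPM, and control trees 15.9, 6.71 and 16.2 CPM. PB217 TPD trees had 6.96, 5.35 and 5.25 CPM, and PB217 control trees 13.9, 11.7 and 13.0 CPM. Both clones were free of overlap, with differences of -1.72 in PB260 and -1.07 in PB217 (-1.70 and -1.47 with TMM). Leaving out 1 tree moved these to between -2.32 and -1.31 in PB260 and between -1.20 and -1.0 in PB217, which is at the limit. Of the other contigs of cluster CL1448 with a mean of at least 2 CPM, CL1448Contig5 differed by -1.59 in PB260 and -0.79 in PB217, and CL1448Contig1 by -1.29 and -0.52, so that both missed the limit in PB217.

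**Figure D4:**
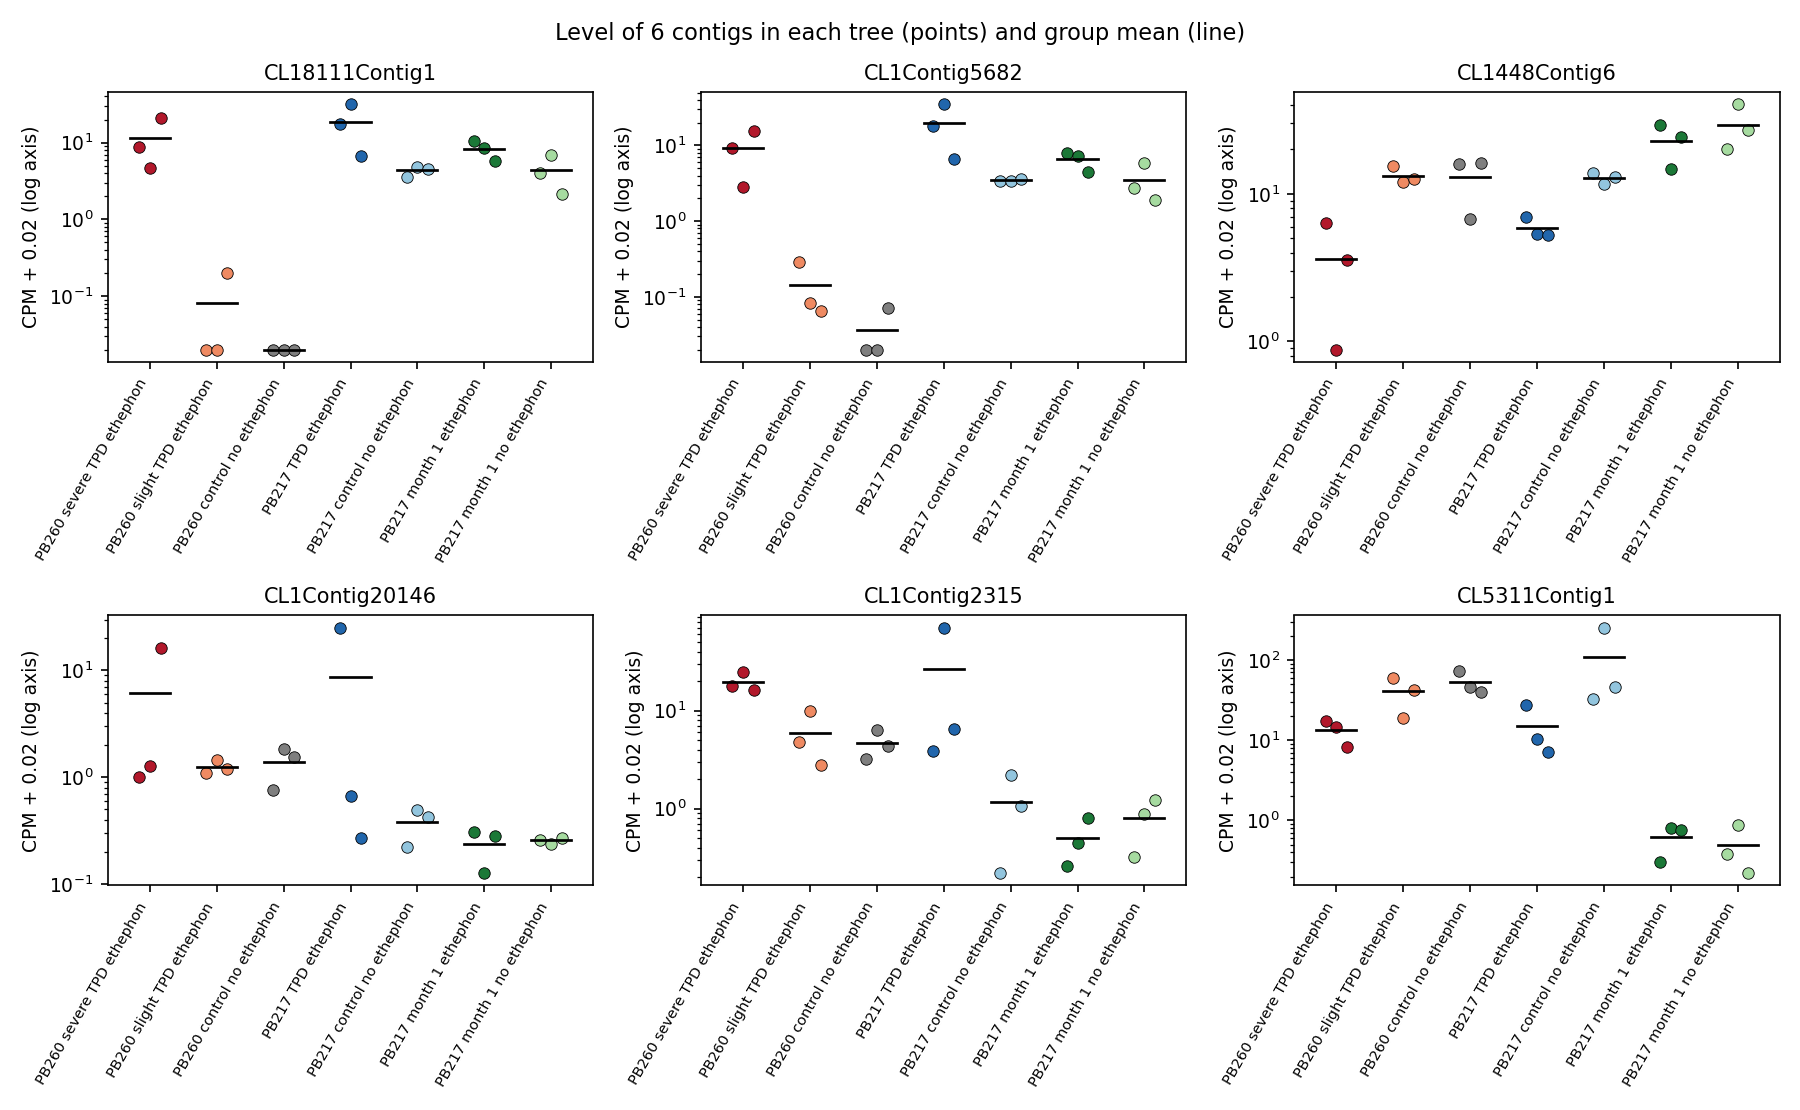
Level of 6 contigs in each of 21 libraries (points, CPM + 0.02 on a log axis) with the group mean (line). CL18111Contig1 and CL1Contig5682 sit at or near 0 in slight TPD and control trees of PB260, CL1448Contig6 is low in both TPD groups, CL1Contig20146 and CL1Contig2315 have 1 PB217 TPD tree far above the others (25.1 and 70.0 CPM), and CL5311Contig1 is below 1 CPM in every month 1 library.

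Among the 23 higher contigs, 7 had fewer than 10 counted pairs in all 3 PB260 control libraries together. Beside CL18111Contig1 and CL1Contig5682 these were CL9568Contig1, CL1Contig13825, CL1Contig15594, CL199Contig7 and CL18992Contig1. CL9568Contig1 had 2.93, 1.01 and 4.55 CPM in severe TPD trees, 0 in every slight TPD tree with ethephon, and 0.0439, 0.0536 and 0.101 CPM in control trees. Against the floor of 3 pairs over the group, severe TPD was at least 53.6-fold higher than slight TPD with ethephon. In PB217 the same contig overlapped, with 38.4, 76.1 and 28.8 CPM in TPD trees and 32.1, 18.6 and 19.6 CPM in control trees, and its difference of 1.01 was just inside the limit.

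CL1Contig13825 had 0.135, 4.70 and 6.30 CPM in severe TPD trees, 0, 0 and 0.0454 CPM in ethephon-treated slight TPD trees, and 0, 0 and 0.101 CPM in control trees. Its PB217 levels were 12.5, 22.2 and 10.8 CPM in TPD trees and 6.64, 3.90 and 7.06 CPM in control trees. Neither clone overlapped, though severe TPD replicate 1 of PB260 rested on 3 pairs. CL1Contig15594 had 1.53, 0 and 2.81 CPM in severe TPD trees, 0, 0.0621 and 0.0908 CPM in ethephon-treated slight TPD trees and 0 in all control trees, at least 29.5-fold higher in severe TPD than in control trees on the same floor, and at least 15.6-fold without severe TPD replicate 3. It overlapped in PB260, since 1 severe TPD tree had no pair at all, and in PB217, where TPD trees had 6.90, 24.4 and 14.0 CPM and control trees 6.64, 4.73 and 7.06 CPM.

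CL199Contig7 was low throughout PB260, at 1.13, 0.454 and 0.900 CPM in severe TPD trees, 0.375, 0 and 0.272 CPM in ethephon-treated slight TPD trees and 0.0439, 0 and 0.203 CPM in control trees. In PB217 it had 11.0, 13.7 and 7.73 CPM in TPD trees and 3.79, 5.86 and 3.73 CPM in control trees, without overlap. CL18992Contig1 had 2.25, 2.37 and 3.71 CPM in severe TPD trees, 0, 0 and 0.272 CPM in ethephon-treated slight TPD trees, and 0, 0.376 and 0.101 CPM in control trees. PB260 was free of overlap here. In PB217 its TPD trees had 23.9, 2.56 and 0.941 CPM and its control trees 2.30, 0.532 and 1.61 CPM, so that replicate 1 held 87.2% of the TPD sum, and without that tree the difference was 0.18 rather than 2.28.

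All 7 contigs had counted pairs in every PB217 library. At month 36, every PB217 control tree was above every PB260 control tree, harvested on the same day, for 15 of the 23 higher contigs and below for 3, where 11.2% of all contigs lay above and 44.9% below. For 9 of the 23 the control level was at least 2 higher on the log2 scale in PB217, against 1.9% of all contigs. The rule used both control groups, and a contig near 0 in PB260 control trees meets its PB260 clause more easily, so these shares are a description. The title codes differ between the clones too, and counts were made on a PB260 reference transcriptome for both.

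To place the low contigs, all contigs with at least 2 CPM in PB217 trees without ethephon at months 36 and 1, and under 0.1 CPM in slight TPD and control trees of PB260, were summed, a set chosen after values were seen. There were 49, of which CL18111Contig1, CL1Contig13825, CL1Contig15594 and CL9568Contig1 are members. In severe TPD trees of PB260 they summed to 27.3, 23.6 and 78.3 CPM, against 1.04 to 1.61 CPM in ethephon-treated slight TPD trees and 1.07 to 2.43 CPM in control trees. The low sums of the slight TPD and control trees were set by that selection. PB217 libraries held 202.6 to 409 CPM of the same set. Only 7, 6 and 12 of the 49 reached 1 CPM in the severe TPD trees and 16, 22 and 20 had no pair there, whereas at least 39 of 49 reached 1 CPM in each PB217 library. Whether these pairs in severe TPD libraries came from the trees themselves or from other libraries was not tested, which bears on the levels and fold bounds of the 4 members named here.

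Of the contigs with clear levels in both clones, CL2596Contig3 had the highest mean, 107 CPM over the 21 libraries, and ranged widely between trees. Severe TPD trees had 10.1, 186 and 221 CPM, ethephon-treated slight TPD trees 15.6, 66.2 and 35.5 CPM, and control trees 14.4, 88.1 and 9.27 CPM. PB217 TPD trees had 493, 84.2 and 251 CPM, and control trees 52.0, 246 and 74.4 CPM. TPD and control overlapped in both clones, and without PB217 TPD replicate 1 the PB217 difference was 0.44 in place of 1.15.

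CL171Contig9 had 12, 1.72 and 50.3 CPM in severe TPD trees, 3.97, 1.43 and 1.82 CPM in ethephon-treated slight TPD trees and 1.54, 1.39 and 4.10 CPM in control trees, with 97.3, 43.7 and 36.3 CPM in PB217 TPD trees and 37.1, 25.7 and 24.2 CPM in PB217 control trees. Here severe TPD replicate 3 held 78.5% of the PB260 severe TPD sum, and both clones overlapped. CL1Contig697 was also uneven, with 21.1, 11.3 and 0.424 CPM in severe TPD trees, 1.18, 0.621 and 0.454 CPM in ethephon-treated slight TPD trees and 0.702, 0.322 and 1.57 CPM in control trees. In PB217 it did not overlap, at 84.5, 28.7 and 40.0 CPM in TPD trees and 27.9, 19.6 and 17.0 CPM in control trees.

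The contigs CL5799Contig6 and CL5799Contig3, the only 2 members from one cluster outside CL1, differed by 1.13 and 1.08 in PB260. Left out 1 at a time, 6 of the 15 trees removed CL5799Contig6 from the members and 5 removed CL5799Contig3. With TMM scaling their PB217 differences were 0.757 and 0.705, under the limit of 1. Of the other cluster contigs with a mean of at least 2 CPM, CL5799Contig5 differed by 0.4 in PB260 and 1.06 in PB217. CL5799Contig7 differed by 0.345 and 1.28, so that both missed the limit in PB260. CL5799Contig6 had 16.5, 8.13 and 16.1 CPM in severe TPD trees, 7.07, 6.71 and 10.0 CPM in ethephon-treated slight TPD trees and 7.55, 4.77 and 5.42 CPM in control trees. In PB217, TPD trees had 21.9, 29.9 and 14.7 CPM and control trees 10.5, 9.76 and 7.86 CPM. Every TPD tree was above every control tree in both clones, yet severe and slight TPD trees of PB260 overlapped, and its ethephon difference of 0.40 (0.395 before rounding) was the largest in size among the 28. CL5799Contig3 had 7.44, 6.31 and 8.58 CPM in severe TPD trees, 4.29, 3.48 and 4.68 CPM in ethephon-treated slight TPD trees and 4.30, 2.47 and 3.04 CPM in control trees. Its PB217 levels were 11.0, 16.4 and 5.99 CPM in TPD trees and 4.94, 4.38 and 4.88 CPM in control trees, again without overlap. The ratio of CL5799Contig6 to CL5799Contig3 ran from 1.29 to 2.73 over all 21 libraries, and since reads with hits on several contigs were removed before counting, contigs of one cluster may have lost shared reads.

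CL912Contig1 and CL1Contig14667 were free of overlap in both clones. CL1Contig14667 had 9.69, 11.1 and 5.82 CPM in severe TPD trees, 5.52, 3.97 and 2.18 CPM in ethephon-treated slight TPD trees and 3.69, 3.00 and 3.24 CPM in control trees, and in PB217 33.8, 26.1 and 21.8 CPM in TPD trees and 13.1, 11.7 and 12.3 CPM in control trees. CL912Contig1 had 9.78, 14.3 and 9.37 CPM in severe TPD trees, 5.25, 4.78 and 3.99 CPM in ethephon-treated slight TPD trees and 4.17, 4.67 and 5.52 CPM in control trees. In PB217 its margin was small except in 1 tree, with 4.95, 30.7 and 5.60 CPM in TPD trees and 4.94, 3.85 and 3.39 CPM in control trees, and without replicate 2 the difference was 0.34 in place of 1.65.

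In PB217, a single TPD tree held over 66.7% of the group's sum for 8 of the 23 higher contigs, replicate 2 for CL1Contig2315, CL912Contig1, CL1Contig3186, CL1Contig8829 and CL1Contig8179, and replicate 1 for CL1Contig19391, CL1Contig20146 and CL18992Contig1. Replicate 3 was the highest TPD tree for none of the 23 and the lowest for 16. CL1Contig2315 had 3.86, 70.0 and 6.54 CPM in PB217 TPD trees and 0.20, 2.19 and 1.03 CPM in control trees, and still differed by 1.80 without replicate 2. In PB260 it had 17.9, 24.7 and 16.4 CPM in severe TPD trees, 4.82, 10.0 and 2.77 CPM in ethephon-treated slight TPD trees and 3.16, 6.33 and 4.36 CPM in control trees, without overlap between severe TPD and either of the other groups.

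CL1Contig20146 was the contig most dependent on 1 tree in each clone. It had 0.992, 1.26 and 16.2 CPM in severe TPD trees, 1.07, 1.43 and 1.18 CPM in ethephon-treated slight TPD trees and 0.746, 1.82 and 1.52 CPM in control trees, with 25.1, 0.651 and 0.248 CPM in PB217 TPD trees and 0.20, 0.473 and 0.402 CPM in PB217 control trees. Without severe TPD replicate 3 the PB260 difference was -0.20 in place of 1.83, and without PB217 TPD replicate 1 the PB217 difference was 0.15 in place of 3.42. CL1Contig19391 had 11.4, 0.909 and 26.8 CPM in severe TPD trees, 1.39, 5.47 and 0.908 CPM in ethephon-treated slight TPD trees, and 0.746, 0.858 and 4.05 CPM in control trees, and in PB217 9.95, 1.07 and 0.594 CPM in TPD trees and 0.250, 0.473 and 0.287 CPM in control trees. It overlapped in PB260 and did not in PB217. CL1Contig3186 had 4.28, 18.9 and 8.10 CPM in severe TPD trees, 2.79, 2.86 and 0.862 CPM in ethephon-treated slight TPD trees and 0.878, 2.58 and 5.17 CPM in control trees, and its PB217 difference of 1.04 turned to -0.51 without TPD replicate 2, the tree at 14.7 CPM.

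The remaining higher contigs were low. CL1Contig8829 had 2.61, 2.83 and 2.07 CPM in severe TPD trees, 0.482, 0.745 and 0.590 CPM in ethephon-treated slight TPD trees and 0.351, 1.07 and 0.760 CPM in control trees, and it was free of overlap in both clones, with 3.53, 16.4 and 3.27 CPM in PB217 TPD trees and 1.3, 2.54 and 1.72 CPM in PB217 control trees. CL1Contig8179 had 3.70, 3.94 and 2.33 CPM in severe TPD trees, 0.804, 1.80 and 0.409 CPM in ethephon-treated slight TPD trees and 0.307, 1.13 and 0.811 CPM in control trees, but overlapped in PB217. CL2775Contig9 likewise was free of overlap in PB260 only, at 5.95, 5.5 and 9.32 CPM in severe TPD trees, 3.11, 2.24 and 2.41 CPM in ethephon-treated slight TPD trees and 3.95, 2.36 and 2.99 CPM in control trees. The reverse held for CL11078Contig1, which did not overlap in PB217 (14.4, 12.9 and 8.62 CPM in TPD trees and 5.24, 4.38 and 4.30 CPM in control trees) but did in PB260, and CL1421Contig6 overlapped in both clones.

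Among the 5 lower contigs, CL1Contig12428 and CL5311Contig1 joined CL1448Contig6 in showing no overlap in either clone. CL1Contig12428 had 19.8, 9.44 and 12.1 CPM in severe TPD trees, 64.3, 23.0 and 49.0 CPM in ethephon-treated slight TPD trees and 39.8, 54.7 and 28.9 CPM in control trees. In PB217 it had 18.9, 14.4 and 21.9 CPM in TPD trees and 38.4, 67.4 and 34.1 CPM in control trees. Its differences were -1.55 in PB260 and -1.32 in PB217, and it met the rule with TMM scaling too.

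CL5311Contig1 had 17.3, 14.4 and 8.10 CPM in severe TPD trees, 60.4, 19.1 and 42.4 CPM in ethephon-treated slight TPD trees and 73.6, 45.9 and 39.3 CPM in control trees. PB217 TPD trees had 27.5, 10.2 and 7.13 CPM and PB217 control trees 32.2, 252 and 45.7 CPM, so that the difference of -2.84 was -1.35 without the control tree at 252 CPM. With TMM scaling its ethephon difference was -0.61, past the limit of 0.4. At month 1 the same contig was at 0.285, 0.795 and 0.735 CPM in PB217 trees with ethephon and 0.359, 0.865 and 0.20 CPM in trees without, far below every library of month 36. The months differed in harvest day as well as in tapping time, and these cannot be told apart.

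CL381Contig2 and CL2860Contig3 overlapped in both clones. CL381Contig2 had 7.12, 1.16 and 1.80 CPM in severe TPD trees, 4.13, 12.2 and 9.03 CPM in ethephon-treated slight TPD trees and 2.63, 10.1 and 19.5 CPM in control trees, with 15.5, 6.70 and 22.8 CPM in PB217 TPD trees and 18.9, 44.0 and 53.4 CPM in PB217 control trees. CL2860Contig3, with a PB260 difference of -1.01 just inside the limit, had 5.23, 4.39 and 7.31 CPM in severe TPD trees, 20.5, 4.53 and 6.22 CPM in ethephon-treated slight TPD trees and 9.30, 6.01 and 20.2 CPM in control trees.

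The limits cut through close values. CL2089Contig3 (smaller difference 0.99, lower in TPD) and CL12143Contig1 (0.97, higher) were just outside the limit of 1. CL9929Contig1 and CL1Contig19261, both higher in TPD, were outside by an ethephon difference of 0.402 and 0.426, where CL5799Contig6 and CL5311Contig1 were inside at 0.395 and 0.377 in size. For the mean level, CL1Contig8179 at 2.02 CPM and CL1Contig8829 at 2.18 CPM were inside, and CL1Contig271 at 1.78 CPM and CL1Contig10272 at 1.72 CPM outside.

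The PB217 trees at month 1 entered the rule only through the mean level, so they allowed a test of whether ethephon alone, without TPD, went with a difference in these contigs at month 1. The groups of the rule were at month 36, so this test does not cover long ethephon use without TPD. Of 28 contigs, 19 passed the filter of 1 CPM in at least 3 of the 6 libraries, 15 higher and 4 lower in TPD. In edgeR's quasi-likelihood test over 27226 contigs, with Benjamini-Hochberg adjustment, 0 of the 19 were called at an adjusted p of 0.05, and 0% of all contigs were. At an unadjusted p under 0.05 there were 2 of the 19, against 8.16% of all contigs. Over all contigs, edgeR's exact test called 68 higher and 14 lower, DESeq2 called 44 higher and 6 lower, and neither called a member. The median log2 fold change of the 19 was 0.14, that of all contigs tested 0.00 (-0.00448 before rounding), and values ran from -0.31 to 1.04 with a median SE of 0.245. For 16 of the 19 the 95% interval lay within a log2 fold change of 1 either way, and for the other 3 the upper bound was 1.06 to 1.87. No interval lay within the rule's ethephon limit of 0.4 either way. The narrowest, that of CL171Contig9, ran from -0.467 to 0.194.

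The 2 contigs at an unadjusted p under 0.05 were CL18111Contig1 and CL1Contig5682, those also kept whichever tree was left out of the rule. CL18111Contig1 had 10.4, 8.53 and 5.78 CPM in month 1 trees with ethephon and 3.95, 6.88 and 2.15 CPM in trees without, and CL1Contig5682 had 7.88, 7.31 and 4.46 CPM with ethephon and 2.76, 5.79 and 1.90 CPM without. Both groups overlapped for both contigs. In edgeR's quasi-likelihood test the log2 fold change was 1.04 (SE 0.37, adjusted p = 0.576) for CL18111Contig1 and 1.03 (SE 0.38, adjusted p = 0.579) for CL1Contig5682. Without the count filter, edgeR called both, at adjusted p = 0.000487 and 0.00147, among 306 contigs called higher and 158 lower of 66010 tested. Over the other alternatives the lowest adjusted p of any member was 0.254, in edgeR's quasi-likelihood test with the replicate number as a block. An absence of an ethephon difference at month 1 was therefore not shown for this pair, whose intervals reached 1.87. Within the limit of 0.4 it was not shown for any member tested. CL1448Contig6 had 29.3, 14.8 and 24.1 CPM with ethephon and 20.2, 40.5 and 27.2 CPM without at month 1, a log2 fold change of -0.25 (SE 0.23, edgeR adjusted p = 0.768).

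**Figure D5:**
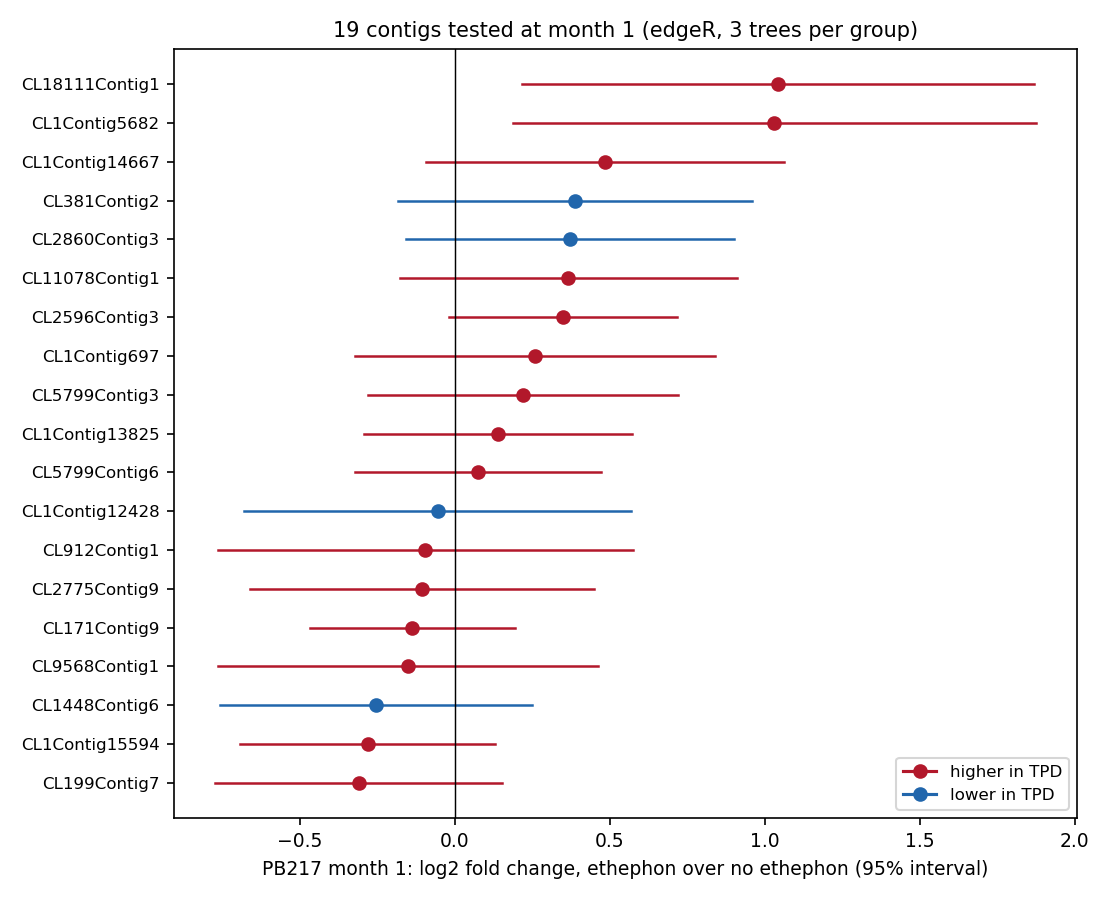
Log2 fold change of 19 contigs between PB217 trees with and without ethephon at month 1 (edgeR's quasi-likelihood fit, 3 trees per group), with 95% intervals. The intervals of CL18111Contig1 and CL1Contig5682 alone leave out 0 before adjustment, at 1.04 and 1.03, and the median of all 19 is 0.14.

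The 9 contigs that were not tested had too low a level at month 1. CL1Contig3186 had at most 0.190 CPM in month 1 libraries, against 0.499, 6.09 and 1.43 CPM in PB217 control trees at month 36, and CL1Contig20146 had at most 0.285 CPM. In PB217 trees without ethephon, every month 36 tree was above every month 1 tree for 8 of 28 contigs and below for 4, where 22.5% of all contigs lay above and 22.5% below.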

How the data were processed

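Latex RNA of 21 libraries was sequenced with a stranded, paired-end polyA protocol. The deposited counts are raw numbers of read pairs per contig, which the authors made by trimming reads, removing ribosomal reads, mapping with Bowtie2 in local mode to a PB260 reference transcriptome (the submitters' processing notes also name TopHat2) and keeping pairs with both mates on 1 contig. Of the reads, 95.1 to 97.7% mapped, 19.1 to 24.0% were removed as hitting several contigs, and 72.4 to 76.4% of pairs were counted. Clusters are the shared CL numbers of contig names.

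CPM was computed from the total of each file, and contigs were selected as described above. At most 300 were to be kept, which did not apply. Members and lists were chosen with earlier results of these data known. Named contigs are those with the highest means, the largest smaller difference of both clones, a cluster with at least 2 members, and those nearest each limit. Other contigs were chosen after their values were seen.

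Month 1 was tested with edgeR 4.0.16 in R 4.3.3 (TMM, 1 CPM in at least 3 of 6 libraries, prior count 0.125, quasi-likelihood F test, adjusted p of 0.05), with its exact test and DESeq2 1.42.0 as alternatives. With 3 against 3 trees an exact two-sided permutation test cannot go below p = 0.1. On simulated month 1 counts of 26708 contigs, the test recovered 55% of log2 changes of 1 and 91% of changes of 2, with 23 false calls. The false calls were a larger share of all calls than the 0.05 aimed at. The simulation planted changes, which loosens the adjusted cutoff, and gave the libraries no differences in composition. These shares therefore do not give the power of the month 1 test. Annotation of 2148 contigs was taken from the study's tables. Floors cover counting error only.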

Additional observations from a re-analysis of the deposited data

Results flagged for a closer look

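CL199Contig7 was without overlap in PB217 at both months, on opposite sides. At month 36 every TPD tree given ethephon was above every control tree, with 11.0, 13.7 and 7.73 CPM in TPD trees and 3.79, 5.86 and 3.73 CPM in control trees. At month 1 every tree with ethephon was below every tree without, with 4.79, 4.34 and 3.73 CPM in trees with ethephon and 6.23, 4.97 and 6.31 CPM in trees without. In log2(CPM + 0.5) the month 36 difference was 1.19 with plain CPM and 0.77 with TMM scaling. With plain CPM the median difference of all 24699 contigs was 0.42 at month 36 and -0.11 at month 1, on the same opposite sides. For CL199Contig7 the month 1 difference was -0.40 with plain CPM. edgeR's quasi-likelihood test gave -0.31 with TMM scaling (SE 0.21, adjusted p = 0.708). The month 1 difference thus did not pass the test, and 3 of 28 members and 10.2% of all contigs did not overlap at month 1. The difference between the months was not tested.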

How the results depend on the processing

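The 28 contigs (23 higher, 5 lower) became 16 with TMM scaling, 16 with DESeq2 size factors, 17 with a mean of at least 5 CPM, 56 with no minimum and 15 with an ethephon limit of 0.2. They became 24 with a pseudocount of 0.1 or of 1, and 21 with group medians, of which 11 were among the 28. Leaving out 1 tree gave 18 to 33. CL1448Contig6 was kept in all 23 alternatives. Leaving out 1 tree, the PB217 difference of CL1Contig3186 ran from -0.51 to 2.16 and the PB260 difference of CL1Contig20146 from -0.20 to 2.30, and both thus reversed. No other sign changed in the 336 differences recomputed for each clone. The cap was never reached, so its removal gave no value.

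At month 1, 0 members were called in every alternative except without the count filter. There, 2 of 28 members were called, among 306 contigs called higher and 158 lower of 66010 tested. The cause was not tested. The members' median ran from -0.04 to 0.27 when 1 tree was left out. With the replicate number as a block, 6 contigs of all were called higher and 0 members, with a median of 0.13. Same-numbered trees deviated from their group means with correlations of -0.451, 0.0816 and 0.302. Deviations within a group of 3 trees sum to 0, so these values cannot settle whether the numbers pair the trees. Levels under 0.13 CPM rest on fewer than 3 pairs, and a group of 3 trees in which 1 holds most of the sum gives a mean that says little of the others.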
